A study of Mus musculus with 32 samples.

Results

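The striatum of mice that received CI-994 before contextual fear conditioning was compared with the striatum of mice that received vehicle before the same training. The comparison takes the 8 striatum libraries whose labels give conditioning, 4 for each treatment, of 32 libraries in the series, and tests every gene with enough counts, 18256 of 54146. All animals were male C57BL/6J mice aged 12 weeks, and each library is the RNA of 1 striatum hemisphere of a single mouse. CI-994 was given at 30 mg/kg 1 hour ahead of training, vehicle was the same solvent (dimethyl sulfoxide, Kolliphor and saline) without the drug, and tissue was collected 1 hour after training. Training consisted of 2 foot shocks of 0.2 mA, each lasting 1 s, in a conditioning chamber. The context mice, used here for a second estimate of the drug effect, had the same time in the chamber and no shock, again with 4 libraries for each treatment. All mice of a cage had the same behaviour, while drug and vehicle were assigned at random.

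CI-994 (tacedinaline) is a benzamide that inhibits the class I histone deacetylases HDAC1, HDAC2 and HDAC3, the enzymes that remove acetyl groups from histone tails within the Sin3, NuRD, CoREST and NCoR corepressor complexes. The striatum is the input nucleus of the basal ganglia, and most of its neurons are GABAergic medium spiny neurons, which carry dopamine D1 receptors with substance P and dynorphin, or D2 receptors with enkephalin. They answer dopamine and glutamate through cAMP, calcium and the ERK kinase cascade. The comparison asks which striatal transcripts differ between drug and vehicle soon after learning.

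The libraries carried the markers of striatum, but 2 of them had fewer spiny neuron transcripts than the others. Levels are TMM-scaled CPM, the count of a gene per megaread of its library after edgeR's TMM scaling, in the order of replicates 1 to 4. Ppp1r1b, which encodes the dopamine and cAMP regulated phosphatase inhibitor DARPP-32, was at 1593, 1412, 1027 and 1596 CPM with vehicle and at 1715, 1013, 1554 and 1347 CPM with CI-994. The lowest values belonged to vehicle replicate 3 and CI-994 replicate 2. Over the 16 hippocampus libraries Ppp1r1b ran from 22.8 to 66.3 CPM and the D1 receptor gene Drd1 from 2.49 to 4.39 CPM, without TMM scaling. The mean of the 31 tested spiny neuron markers was 8.14, 8.01, 7.69 and 8.09 log2 CPM with vehicle and 8.33, 7.68, 8.22 and 7.95 log2 CPM with CI-994. Slc17a7, the vesicular glutamate transporter of neocortical neurons, was at 3.51, 15.0, 339 and 50.3 CPM with vehicle and at 16.6, 252, 3.54 and 261 CPM with CI-994. Vehicle replicate 3 and CI-994 replicates 2 and 4 were high in this transcript, which spiny neurons lack. Zic1, a transcription factor gene of thalamic, pallidal and septal neurons, was at 13.2, 13.8, 8.97 and 13.6 CPM with vehicle and at 13.6, 116, 13.1 and 12.9 CPM with CI-994, so CI-994 replicate 2 alone stood out. In these libraries of whole tissue, fewer cells of a type and less RNA per cell cannot be told apart. Counts of genes called are given for all 8 libraries and, as the count without the 2 libraries, without vehicle replicate 3 and CI-994 replicate 2 (6 libraries).

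**Figure D1:**
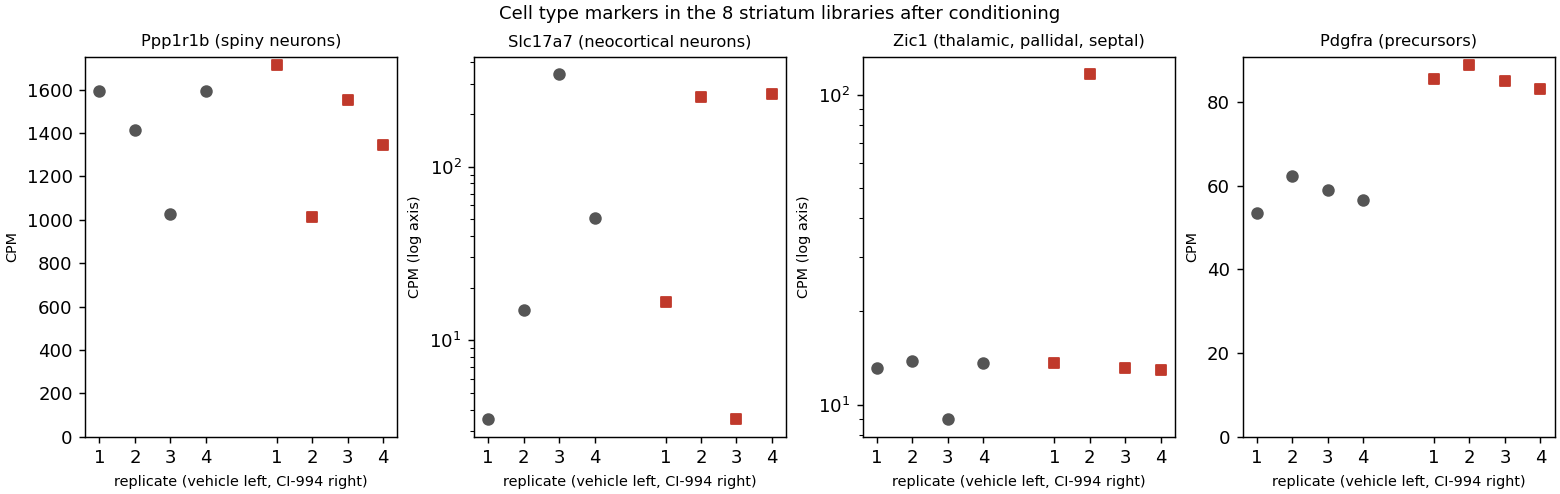
Level (CPM, TMM-scaled) of 4 marker genes in each of the 8 libraries, with the 4 vehicle libraries on the left of each panel as circles and the 4 CI-994 libraries on the right as squares; the panels of Slc17a7 and Zic1 have log axes. Slc17a7 ran from 3.51 to 339 CPM with vehicle and from 3.54 to 261 CPM with CI-994, Zic1 was high in CI-994 replicate 2 alone, and Pdgfra of oligodendrocyte precursors separated the groups.

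CI-994 changed many striatal transcripts, most of them by less than 2-fold. By edgeR's quasi-likelihood test, 4416 of 18256 genes (24.2%) were called at adjusted p under 0.05, of which 1748 (9.57%) were higher and 2668 (14.6%) lower with CI-994. The median called gene was 1.49-fold higher or 1.44-fold lower. The tails held 379 genes over 2-fold higher and 346 over 2-fold lower, and 100 and 63 over 3-fold. For 4311 genes (23.6%) the 8 libraries fell into 2 groups without overlap. Of the genes called lower 93.1% were protein-coding, against 79.3% of those called higher and 80.4% of all genes tested. Long non-coding classes, including antisense transcripts, made up 17.3% of the genes called higher and 5.47% of those called lower. Their share of all genes tested was not computed. By the protein-coding share, the genes called higher were near all genes tested. Without vehicle replicate 3 and CI-994 replicate 2, 4331 of 18446 genes (23.5%) were called, 1596 (8.65%) higher and 2735 (14.8%) lower, and 1166 of the 1748 and 2321 of the 2668 genes above were called again in the same direction. With scaling to library size alone the lower share of the calls was 76.5% in place of 60.4%, so directions are relative to the TMM scaling.

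**Figure D2:**
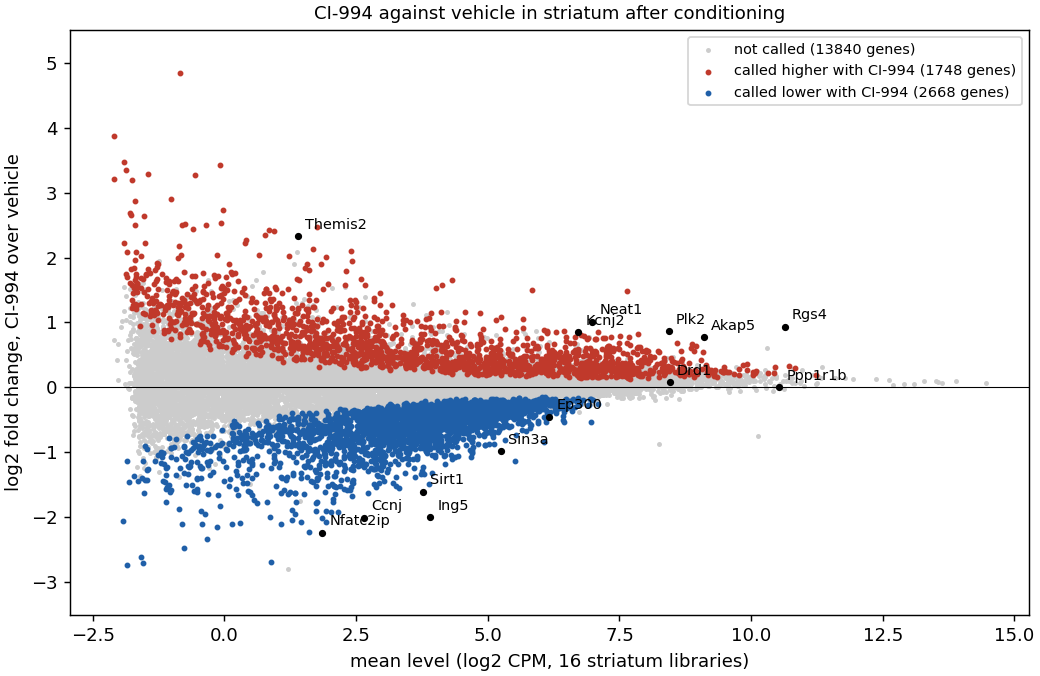
Log2 fold change of CI-994 over vehicle after conditioning for each of 18256 genes against its mean level in log2 CPM over the 16 striatum libraries, with called genes in colour. The 2668 genes called lower included Ing5, Sirt1 and Sin3a, the 1748 called higher included Themis2, Rgs4 and Plk2, and the spiny neuron genes Ppp1r1b and Drd1 lay near 0.

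The genes that fell most were regulators of transcription, the cell cycle and inflammatory signalling. These genes, and those that rose most, were chosen among genes whose 8 libraries do not overlap and whose call is the same without the 2 libraries, so both properties follow from the choice. Nfatc2ip (ENSMUSG00000030722, chr7:126382854-126396737 in GRCm38), which encodes a protein that binds the transcription factor NFATc2, was at 4.76, 6.04, 6.49 and 6.71 CPM with vehicle and at 1.14, 1.18, 1.27 and 1.49 CPM with CI-994. The drug libraries lay within 1.14 to 1.49 CPM, a log2 fold change of -2.24 ± 0.20 (SE, n = 4 mice per group, edgeR quasi-likelihood, adjusted p = 1.22e-06). Ing5 (ENSMUSG00000026283, chr1:93803965-93822101), a histone methylation reader of acetyltransferase complexes, was at 23.4, 24.0, 23.7 and 25.4 CPM with vehicle and at 5.89, 6.79, 5.86 and 5.69 CPM with CI-994. The drug group lay within 5.69 to 6.79 CPM and was 3.98-fold lower (adjusted p = 5.79e-09). Ccnj, which encodes cyclin J, was at 10.1, 9.83, 10.3 and 9.11 CPM with vehicle and at 2.43, 2.81, 2.20 and 2.33 CPM with CI-994. It was 4.02-fold lower (adjusted p = 1.44e-08). Cyclin F (Ccnf), the substrate receptor of an SCF ubiquitin ligase, was 4.14-fold lower, with 2.78 to 4.35 CPM in vehicle and 0.783 to 1.03 CPM in drug libraries. Taf5, a subunit of the general transcription factor TFIID, was 3.79-fold lower, with 5.73 to 7.14 CPM in vehicle and 1.47 to 1.86 CPM in drug libraries. Tnfaip3, which encodes the NF-kappaB inhibitor A20, was 3.76-fold lower, with 5.77 to 7.82 CPM in vehicle and 1.59 to 2.28 CPM in drug libraries. The other 5 of the 11 genes given here were zinc finger genes: Zfp472 (-2.22), Rsl1 (-2.07), Zfp791 (-2.06), Zfp599 (-2.01) and Zfp202 (-1.94), all as log2 fold changes. Without the 2 libraries the log2 fold changes of the 11 ran from -2.19 for Zfp472 to -1.85 for Rsl1. Of the 209 genes chosen for description, 93 overlap another gene model, among them Nfatc2ip, Ing5, Taf5, Ccnf, Sin3a and Sirt1, and reads of the overlap may be assigned to either.

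The genes that rose most were at low levels in vehicle striatum. Themis2 (ENSMUSG00000037731, chr4:132781843-132796387), a signalling adaptor best known from B cells and macrophages, was at 1.01, 0.938, 0.816 and 0.531 CPM with vehicle and at 4.12, 3.67, 4.62 and 4.21 CPM with CI-994. The log2 fold change was 2.33 ± 0.19 (SE, n = 4, edgeR quasi-likelihood, adjusted p = 4.26e-07). Mapkapk3, a kinase downstream of p38, was 3.45-fold higher, with 1.81 to 2.45 CPM in vehicle and 5.95 to 8.03 CPM in drug libraries. Rgs16, which speeds the shut-off of G protein signals, was 3.17-fold higher with 1.79 to 3.94 CPM in vehicle and 6.67 to 11.1 CPM in drug libraries. Draxin (4.07-fold), a repulsive axon guidance protein, Snai3 (3.58-fold), a Snail-family repressor, Avil (3.19-fold), the actin-binding protein advillin, and Ccr6 (3.15-fold), a chemokine receptor, were also higher. Rara, the retinoic acid receptor alpha gene, was 3.02-fold higher and Fam167a 2.97-fold higher. Without the 2 libraries the folds of these 9 genes ran from 2.54-fold for Rara to 5.15-fold for Themis2. Of these 9, Avil was not called when CI-994 replicate 3 was left out (adjusted p = 0.060, edgeR quasi-likelihood). For the other 2 genes of this set the size of the change rested on 1 library, while the call was kept when any 1 library was left out. Zic4, which neighbours Zic1 in the genome, was at 1.21, 1.42, 1.16 and 1.62 CPM with vehicle and at 2.21, 23.6, 2.01 and 2.33 CPM with CI-994, and its log2 fold change of 2.47 became 0.60 without the 2 libraries (adjusted p = 0.029). Prkcd, the protein kinase C delta gene and a thalamic marker, was at 17.9, 74.3, 16.1 and 16.5 CPM with CI-994 against 8.18 to 12.6 CPM with vehicle, and its log2 fold change went from 1.58 to 0.72 (adjusted p = 0.00307).

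**Figure D3:**
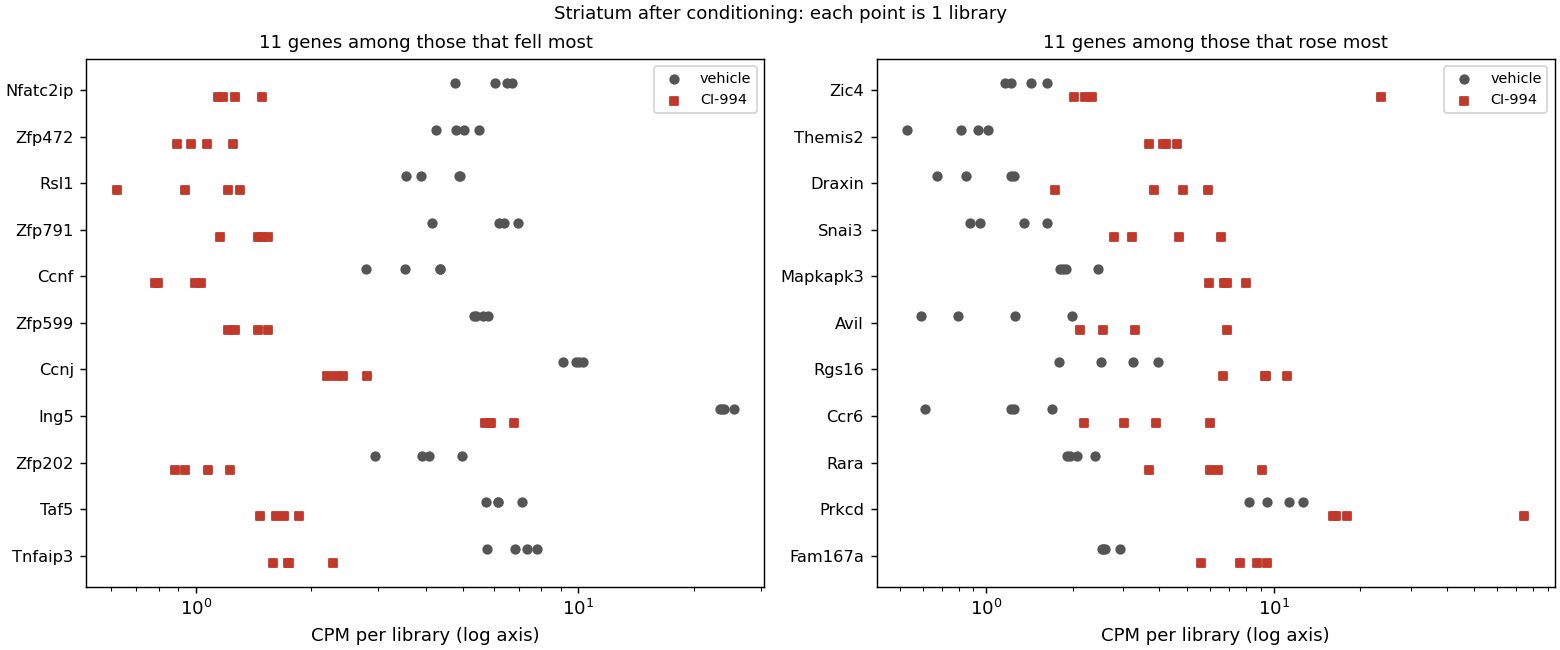
Level (CPM, log axis) of the 11 genes that fell and the 11 that rose described in the text among those with the largest changes, with 1 point per library, circles for vehicle and squares for CI-994. The genes were chosen among those whose groups do not overlap, and CI-994 replicate 2 is the isolated point of Zic4 (2.21, 23.6, 2.01 and 2.33 CPM) and Prkcd (17.9, 74.3, 16.1 and 16.5 CPM).

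By the median, promoters of genes called higher held fewer CpG dinucleotides than those of genes called lower. RefSeq promoter windows (GRCm38.p6, 300 bases, from 250 before to 50 after the annotated start) were found for 12383 of the 18256 tested genes. More than 1 window was listed for 2499 of these genes, Sin3a and Ccr6 among them, and the first listed was used. The median window held 20 CpG over all 12383 genes, 15 for genes called higher and 21 for genes called lower, and 8 and 18 for genes called higher or lower by over 2-fold. Without the 2 libraries the medians were 17 for genes called higher and 21 for genes called lower. The Zfp genes called lower, described below, had a median of 13 CpG, against 14 for all Zfp genes tested. Fewer than 5 CpG were counted in 10.5% of all windows, in 16.5% of those of genes called higher and in 2.97% of those of genes called lower. Read the other way, 15.3% of genes with 0 to 4 CpG were called higher and 4.78% lower, against 7.63% and 20.5% of genes with 20 to 29 CpG. The level moved with the CpG class as well, with a median of 2.35 CPM for the first class and 22.9 CPM for the second, and its part in the difference was not tested. The following 6 windows, written 5′ to 3′ on the gene's strand with CpG in capitals, show single cases over this range. Among the genes described above, Nfatc2ip fell most, and Themis2 rose most of those whose size of change did not rest on 1 library. Sin3a and Rgs4 are the corepressor and signalling genes described below, and Ing5 and Ccr6 were picked after their CpG counts were seen, as the ends of the range.
Nfatc2ip: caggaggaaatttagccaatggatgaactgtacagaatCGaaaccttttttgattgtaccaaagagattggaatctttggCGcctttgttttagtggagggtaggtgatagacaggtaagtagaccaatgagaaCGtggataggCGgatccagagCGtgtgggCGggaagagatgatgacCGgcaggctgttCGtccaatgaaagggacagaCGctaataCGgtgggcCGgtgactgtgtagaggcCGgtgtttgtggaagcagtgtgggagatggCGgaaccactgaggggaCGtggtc
Ing5: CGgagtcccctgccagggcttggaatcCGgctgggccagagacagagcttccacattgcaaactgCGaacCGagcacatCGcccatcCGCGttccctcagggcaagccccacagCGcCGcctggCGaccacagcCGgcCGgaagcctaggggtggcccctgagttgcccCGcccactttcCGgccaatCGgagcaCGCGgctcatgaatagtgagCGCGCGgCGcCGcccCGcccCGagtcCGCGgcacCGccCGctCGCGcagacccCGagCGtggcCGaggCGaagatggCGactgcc
Sin3a: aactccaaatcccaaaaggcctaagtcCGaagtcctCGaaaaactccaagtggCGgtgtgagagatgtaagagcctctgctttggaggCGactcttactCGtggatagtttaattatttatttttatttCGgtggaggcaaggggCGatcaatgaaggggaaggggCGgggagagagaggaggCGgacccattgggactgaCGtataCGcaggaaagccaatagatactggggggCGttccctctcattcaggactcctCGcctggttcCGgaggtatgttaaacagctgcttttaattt
Themis2: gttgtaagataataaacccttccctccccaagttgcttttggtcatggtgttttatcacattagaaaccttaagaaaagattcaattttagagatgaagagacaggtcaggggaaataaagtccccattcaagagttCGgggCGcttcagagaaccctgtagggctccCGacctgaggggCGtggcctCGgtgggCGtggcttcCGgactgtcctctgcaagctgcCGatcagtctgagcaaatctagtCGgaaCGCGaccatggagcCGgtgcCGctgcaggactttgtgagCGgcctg
Ccr6: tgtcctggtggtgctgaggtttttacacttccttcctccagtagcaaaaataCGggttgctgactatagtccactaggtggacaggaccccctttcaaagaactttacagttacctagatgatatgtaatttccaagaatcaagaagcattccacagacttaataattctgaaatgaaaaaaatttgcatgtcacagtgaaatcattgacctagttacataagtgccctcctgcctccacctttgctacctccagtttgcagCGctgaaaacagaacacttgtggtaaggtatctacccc
Rgs4: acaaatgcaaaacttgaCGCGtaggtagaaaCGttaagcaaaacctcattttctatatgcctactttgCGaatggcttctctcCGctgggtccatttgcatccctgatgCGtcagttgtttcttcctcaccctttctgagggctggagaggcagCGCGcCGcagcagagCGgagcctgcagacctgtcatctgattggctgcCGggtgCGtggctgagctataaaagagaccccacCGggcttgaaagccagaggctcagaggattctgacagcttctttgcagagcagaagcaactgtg
The 3 genes called lower had windows at chr7:126396688-126396987 on the minus strand (Nfatc2ip, 14 CpG), chr1:93803715-93804014 on the plus strand (Ing5, 35 CpG) and chr9:57071790-57072089 on the plus strand (Sin3a, 14 CpG). Each of them held a GC box (GGGCGG on either strand) and a CCAAT box (CCAAT on either strand). The 3 genes called higher had windows at chr4:132796315-132796614 on the minus strand (Themis2, 14 CpG), chr17:8235793-8236092 on the plus strand (Ccr6, 2 CpG) and chr1:169747593-169747892 on the minus strand (Rgs4, 13 CpG). Rgs4 held a CCAAT box and a TATA box (TATAAA), and Themis2 and Ccr6 none of the searched motifs. Over all windows a GC box was found in 61.1%, in 56.6% of those of genes called higher and in 64.8% of those called lower. A TATA box was found in 7.49%, 10.6% and 5.31%, an AP-1 site (TGANTCA) in 4.94%, 6.71% and 3.54%, and a full cAMP response element (TGACGTCA) in 3.08%, 2.24% and 3.97%, in the same order. A CCAAT box was found in 38.4%, 37.7% and 43.1%.

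Among the genes of histone acetylation, many acetyltransferase, acetyl-lysine reader and Ing genes fell. So did single corepressor and sirtuin genes (Sin3a, Rcor1, Rcor3, Sirt1, Sirt7), while the drug's own targets did not pass the test. None of the 4 class I deacetylase genes was called: Hdac1 was at 13.2, 13.8, 15.9 and 15.6 CPM with vehicle and 13.7, 17.5, 15.0 and 17.1 CPM with CI-994 (log2 fold change 0.11 ± 0.09). Hdac2 was at -0.12 ± 0.10 and Hdac3 at -0.05 ± 0.07, also as log2 fold change ± SE. Hdac8 was not called with all 8 libraries and was called higher without the 2 (0.30, adjusted p = 0.0292). Of 14 other deacetylases and sirtuins, 3 (21.4%) were called lower and 0 higher, against 14.6% and 9.57% of all genes, and 3 and 1 without the 2 libraries. Sirt1, an NAD-dependent deacetylase, was at 20.2, 18.0, 23.1 and 18.9 CPM with vehicle and at 6.70, 6.38, 8.24 and 5.08 CPM with CI-994. It was 3.04-fold lower with no overlap between groups (adjusted p = 4.91e-07). Sirt7 was 1.43-fold lower and Hdac10 1.46-fold lower. Of 36 corepressor subunits, 11 (30.6%) were called lower and 4 (11.1%) higher, and 11 and 5 without the 2 libraries, with a median log2 fold change of -0.06 against 0.03 over all genes. Sin3a (ENSMUSG00000042557, chr9:57072040-57128366), the scaffold of the Sin3 complex, was at 48.8, 46.6, 48.3 and 53.5 CPM with vehicle and at 26.5, 24.7, 23.9 and 25.2 CPM with CI-994 (1.97-fold lower with no overlap, adjusted p = 1.8e-07). Rcor1 and Rcor3, the CoREST scaffolds, were 1.62-fold and 1.74-fold lower. Tbl1x, a subunit of the NCoR complex, was 1.40-fold higher and Chd4, the NuRD remodeller, 1.24-fold higher, and Ncor1 was not called (0.13 ± 0.06). The list of 26 acetyltransferases and acetyl-lysine readers also holds Ing3, Ing4 and the methylation reader gene Ing5. Of its members 13 (50%) were called lower and 0 higher (median -0.18), and 12 and 0 without the 2 libraries. Ep300, which encodes the acetyltransferase p300, was at 88.4, 78.6, 79.7 and 78.0 CPM with vehicle and at 63.6, 59.8, 59.8 and 54.4 CPM with CI-994, 1.37-fold lower. Its relative Crebbp was 1.28-fold lower, the bromodomain protein gene Brd8 1.41-fold lower and Ing3 1.52-fold lower.

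Zinc finger genes named Zfp formed the largest single group of fallers described here. Of 362 tested, 215 (59.4%) were called lower and 14 higher, against 14.6% and 9.57% of all genes, and the median log2 fold change was -0.45. With scaling to library size 249 were lower and 10 higher, and without the 2 libraries 219 and 11. The log2 fold change was below 0 for 308 of the 362, and 146 fell by over 1.5-fold, 59 by over 2-fold and 14 by over 3-fold. Zfp genes called lower were found on each of the 20 chromosomes that carry a tested one, and made up 8.06% of all genes called lower but 1.98% of genes tested. Most of these genes encode KRAB or other C2H2 zinc finger proteins, a family known for silencing transposable elements and neighbouring genes. Zfp111 was at 12.7, 13.2, 15.4 and 13.5 CPM with vehicle and at 5.41, 5.23, 5.03 and 5.34 CPM with CI-994, 2.60-fold lower (adjusted p = 5.92e-08). Zfp954 was at 8.67, 9.45, 10.5 and 10.0 CPM with vehicle and at 2.98, 3.60, 3.06 and 2.85 CPM with CI-994, 3.09-fold lower. Zfp287 and Zfp868 were 2.53-fold and 2.27-fold lower. In each of these 4 genes all CI-994 libraries lay below all vehicle libraries. They are the called members with the smallest adjusted p, so this follows largely from the choice. The groups did not overlap in 221 of the 362 tested Zfp genes, against 23.6% of all genes. The family has near-identical relatives, among which reads can be split wrongly. Of the 214 tested Zfp genes whose model overlaps no other gene model, 137 were called lower.

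Many genes of NF-kappaB and interferon signalling were also lower. Of 32 tested, 14 (43.8%) were called lower and 2 (6.25%) higher, against 14.6% and 9.57% of all genes (median -0.33), and 16 and 3 without the 2 libraries. Malt1 and Bcl10, partners in the complex that activates NF-kappaB downstream of antigen receptors, were the strongest beside Tnfaip3. Malt1 was at 16.2, 12.9, 14.3 and 14.4 CPM with vehicle and at 5.30, 3.81, 5.44 and 5.14 CPM with CI-994, 2.94-fold lower with no overlap (adjusted p = 3.41e-07). Bcl10 was 2.36-fold lower, with 8.77 to 11.1 CPM in vehicle and 3.72 to 4.75 CPM in drug libraries. Stat2, which carries type I interferon signals, was 1.69-fold lower, with 22.8 to 24.6 CPM in vehicle and 13.1 to 14.7 CPM in drug libraries. Nfkbia, the inhibitor that NF-kappaB itself induces, was not called (0.16 ± 0.21), with 12.3, 18.3, 9.52 and 22.6 CPM in vehicle libraries and 16.1, 15.3, 19.8 and 18.8 CPM in drug libraries. The fallers of the list thus held an inhibitor of the pathway (Tnfaip3) as well as activators (Malt1, Bcl10).

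Cholesterol, Kruppel-like and growth arrest genes had single members called in both directions. Of 28 genes of cholesterol synthesis and uptake, 5 (17.9%) were called lower and 1 (3.57%) higher, against 14.6% and 9.57% of all genes, and 6 and 1 without the 2 libraries. Hsd17b7, an enzyme of the synthesis pathway, was 1.90-fold lower, with 15.2 to 21.1 CPM in vehicle and 7.74 to 11.2 CPM in drug libraries. Insig1, the sterol-regulated anchor of the pathway, was 1.61-fold lower, while Abca1, which exports cholesterol, was at 69.0, 89.0, 63.7 and 74.8 CPM with vehicle and at 129.9, 117, 134 and 126 CPM with CI-994, 1.71-fold higher. Of 14 Kruppel-like factors, 6 (42.9%) were higher and 3 (21.4%) lower, 7 and 2 without the 2 libraries, and 3 and 3 with scaling to library size. Klf11 was at 7.59, 8.20, 6.90 and 7.74 CPM with vehicle and at 2.39, 2.88, 2.46 and 2.52 CPM with CI-994, 2.96-fold lower with no overlap, and Klf16 was 1.41-fold lower. Klf3 (1.31-fold) and Klf12 (1.28-fold) were higher. Of 20 growth arrest and cell cycle genes, 4 (20%) were higher and 3 (15%) lower, and 5 and 3 without the 2 libraries. Cyclin D2 (Ccnd2) was 1.70-fold higher, the p53-induced Trp53inp1 2.05-fold lower and cyclin G2 (Ccng2) 1.59-fold lower. Cdkn1a, which encodes the cell cycle inhibitor p21 and rises with deacetylase inhibitors in many cell lines, was at 12.6, 36.2, 23.1 and 26.5 CPM with vehicle and at 25.9, 23.4, 34.2 and 42.0 CPM with CI-994 and was not called (0.35 ± 0.25).

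The classical activity-induced transcription factors varied more between mice than between treatments. Fos was at 25.6, 8.27, 15.9 and 2.96 CPM with vehicle and at 11.3, 17.3, 14.3 and 11.2 CPM with CI-994, and the groups overlapped fully (log2 fold change 0.04 ± 0.48). Egr1 was at 488, 253, 314 and 203 CPM with vehicle and at 489.6, 402, 499.7 and 349.8 CPM with CI-994, also overlapping (0.47 ± 0.23, adjusted p = 0.161). Npas4 (0.47 ± 0.42), Arc (0.39 ± 0.46) and Nr4a1 (0.40 ± 0.37) were not called either. Vehicle replicate 4 was the lowest library of all 5 genes and vehicle replicate 1 the highest of Fos, Arc and Nr4a1. When vehicle replicate 1 alone was left out, Egr1 and Nr4a1 were called higher. Nr4a1 was also called higher with only replicates 3 and 4. Of 22 genes of this list, 4 (18.2%) were called higher and 0 lower, against 9.57% and 14.6% of all genes, and 3 and 0 without the 2 libraries. The median log2 fold change of the list was 0.253 here and -0.195 in context mice, where 2 were called higher and 1 lower. A difference between the drug effects after conditioning and in context mice was called for 0 of the 22. Ier5, a heat shock factor partner, was at 38.4, 25.9, 40.8 and 28.5 CPM with vehicle and at 62.0, 56.5, 64.7 and 59.4 CPM with CI-994, 1.81-fold higher with no overlap (adjusted p = 0.000144). Btg2, an antiproliferative cofactor, was 1.97-fold higher, while Klf2 (1.98-fold) and Atf3 (1.82-fold) were called higher with all 8 libraries and not without the 2 (adjusted p = 0.159 and 0.0824).

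Single activity-regulated effectors and feedback genes were also higher. Of 28 effectors, 5 (17.9%) were called higher and 1 (3.57%) lower, against 9.57% and 14.6% of all genes, and 8 and 0 without the 2 libraries. Plk2, the kinase that removes synaptic scaffold proteins during prolonged activity, was at 239.8, 222, 250.1 and 229 CPM with vehicle and at 458, 355, 453 and 451 CPM with CI-994, 1.82-fold higher with no overlap (adjusted p = 2.02e-06). Tiparp, a mono-ADP-ribosyltransferase, was 1.64-fold higher, and Rgs2 1.51-fold higher. Homer1, which encodes a postsynaptic scaffold and a short activity-induced form, was at 354, 284, 469 and 286 CPM with vehicle and at 494, 355, 560.1 and 399 CPM with CI-994. It was not called with all 8 libraries (0.38 ± 0.16, adjusted p = 0.105) and was called higher without the 2 (0.63, adjusted p = 0.00427). The neurotrophin gene Bdnf was at 0.202, 0.452, 17.0 and 0.624 CPM with vehicle and at 0.442, 8.21, 0.0746 and 7.12 CPM with CI-994, and Ptgs2, which encodes cyclooxygenase COX-2, at 2.12, 2.54, 12.0 and 2.71 and 5.71, 13.8, 5.18 and 14.1 CPM. Both were highest in the 3 libraries with the highest Slc17a7, vehicle replicate 3 and CI-994 replicates 2 and 4, and the part of this tissue content in their values was not tested. Neither was called with all 8 libraries. Ptgs2 was called higher without the 2 libraries and Bdnf was not. Without the 3 libraries the log2 fold change of Ptgs2 was 1.11 (adjusted p = 0.113 by edgeR's quasi-likelihood test). Of 17 MAP kinase feedback genes, 3 (17.6%) were higher and 0 lower, and 5 and 2 without the 2 libraries. Spred1, an inhibitor of Ras signalling, was 1.32-fold higher and the phosphatase gene Dusp5 1.48-fold higher. Dusp6 (0.33 ± 0.18), Dusp1 (0.24 ± 0.19) and Spry4 (0.31 ± 0.19) were not called.

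Several regulators of G protein signalling rose in striatum, among them 2 of the region's most abundant members. Rgs4 (ENSMUSG00000038530, chr1:169741477-169747642), which dampens Gq and Gi signals of metabotropic glutamate and muscarinic receptors, was at 956, 1021, 958 and 1088 CPM with vehicle and at 2311, 1379, 2463 and 1539 CPM with CI-994. The vehicle libraries lay within 956 to 1088 CPM, whereas the drug libraries were spread over 1379 to 2463 CPM, with replicates 1 and 3 the highest. The log2 fold change was 0.94 ± 0.14 (adjusted p = 0.000174) with all libraries and 1.02 without the 2. Rgs8 was at 332, 311, 293 and 311 CPM with vehicle and at 543, 369, 508 and 424 CPM with CI-994, 1.48-fold higher, with the same 2 drug libraries on top. Rgs3 was 1.61-fold higher. Rgs9, whose striatal form acts on dopamine and opioid receptor signals, was not called (0.01 ± 0.17). Of 17 members, 5 (29.4%) were called higher, against 9.57% of all genes, and 0 lower, 6 and 0 without the 2 libraries, and 5 and 1 with scaling to library size.

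The identity genes of spiny neurons did not, for the most part, pass the test. Drd1 was at 336, 300.0, 291 and 339 CPM with vehicle and at 378, 246, 388 and 326 CPM with CI-994 (log2 fold change 0.08 ± 0.11). Drd2 (0.03 ± 0.16), Penk (0.02 ± 0.14), Pdyn (0.14 ± 0.15), Adora2a (-0.01 ± 0.22) and Pde10a (0.06 ± 0.14) had errors from 0.14 to 0.22. Tac1, the substance P precursor, was called higher without the 2 libraries (0.38, adjusted p = 0.0154) and not with all 8 (0.28 ± 0.14). Isl1, the LIM homeodomain factor of D1 neurons, was at 14.6, 12.1, 10.0 and 11.7 CPM with vehicle and at 7.62, 6.93, 8.13 and 6.02 CPM with CI-994, 1.69-fold lower with no overlap (adjusted p = 0.000563). Bcl11b, which encodes the spiny neuron factor CTIP2, was at 239, 227, 209 and 248 CPM with vehicle and at 377, 244, 352 and 299 CPM with CI-994, 1.38-fold higher, and Strip2 was 1.32-fold higher. Of 31 markers 2 (6.45%) were higher and 1 (3.23%) lower, against 9.57% and 14.6% of all genes, and 5 and 1 without the 2 libraries.

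Among neuromodulator receptors, 5 of 35 (14.3%) were called higher and 1 (2.86%) lower, against 9.57% and 14.6% of all genes, 5 and 0 without the 2 libraries, and 2 and 3 with scaling to library size. The kappa opioid receptor gene Oprk1, which answers dynorphin, was at 32.9, 45.4, 52.0 and 46.2 CPM with vehicle and at 29.8, 26.8, 26.7 and 32.4 CPM with CI-994. It was 1.53-fold lower (adjusted p = 0.0162) and was not called without the 2 libraries (-0.51, adjusted p = 0.075). The adenosine A1 receptor gene Adora1 was 1.18-fold higher, the neuropeptide Y receptor gene Npy1r 1.49-fold higher and Ntrk2, the BDNF receptor gene, 1.20-fold higher. The cannabinoid receptor gene Cnr1 was not called (-0.02 ± 0.15). Oprm1, the mu opioid receptor gene, was called higher without the 2 libraries (adjusted p = 0.0471) and not with all 8 (0.32 ± 0.15). Of 18 neuropeptide genes only Pnoc was called with all 8 libraries, and only Tac1 without the 2. Pnoc was at 0.921, 8.94, 0.634 and 1.84 CPM with CI-994 against 0.169 to 1.18 CPM, and it rested on CI-994 replicate 2 (0.86, adjusted p = 0.351 without the 2 libraries). Of 40 cAMP signalling genes 3 (7.5%) were higher and 3 (7.5%) lower, both below the shares of all genes, and 1 and 3 without the 2 libraries. Akap5, which anchors protein kinase A and calcineurin at the synapse, was at 381, 402, 386 and 398 CPM with vehicle and at 776, 488, 746 and 664 CPM with CI-994, 1.71-fold higher (adjusted p = 0.000155). Crtc2 and Atf1, a coactivator and a relative of CREB, were 1.52-fold and 1.56-fold lower, the phosphodiesterase gene Pde7a was 1.38-fold lower, and Creb1 itself was not called (0.01 ± 0.08).

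Ion channel and synapse genes that passed the test were nearly all higher, and most by less than 2-fold, but in several lists the share called higher was near the 9.57% of all genes. Potassium channel genes had the most calls, with 11 of 54 (20.4%) higher and 0 lower (9 and 1 with scaling to library size, 14 and 1 without the 2 libraries). Kcnj2, the inward rectifier that holds spiny neurons at their hyperpolarized resting potential, was at 78.5, 67.8, 74.6 and 63.0 CPM with vehicle and at 148, 90.7, 164 and 111 CPM with CI-994, 1.81-fold higher with no overlap (adjusted p = 0.000353). Kcna4, an A-type channel gene, was 1.47-fold higher, Kcna6 1.59-fold, the small-conductance channel gene Kcnn3 1.53-fold and the astrocyte channel gene Kcnj10 1.43-fold. Kcnd2 (0.03 ± 0.09) and Kcnj4 (0.20 ± 0.23) were not called. Of 28 sodium, calcium and HCN channel genes 3 (10.7%) were higher and 0 lower, and 5 and 0 without the 2 libraries. The 3 were Scn3a (1.48-fold), Scn3b (1.22-fold) and Scn2a (1.18-fold). Scn3a was at 140.1, 116, 130.4 and 129 CPM with vehicle and at 212, 155, 223 and 172 CPM with CI-994. Of 50 glutamate receptor and scaffold genes 5 (10%) were higher and 0 lower, 8 and 0 without the 2 libraries and 1 and 0 with scaling to library size. The AMPA receptor genes Gria1 and Gria2 were 1.16-fold and 1.20-fold higher, the neuroligin gene Nlgn3 1.26-fold and Dlg3, which encodes SAP102, 1.13-fold. Grin2b (0.11 ± 0.09), Grm5 (0.19 ± 0.09) and Dlg4 (0.05 ± 0.14) were not called. Of 21 GABA genes 4 (19%) were higher, and 4 without the 2 libraries, among them Gad2 at 468, 528, 505 and 484 CPM with vehicle and 662, 614, 632 and 539 CPM with CI-994 (1.23-fold), Gad1 (1.19-fold) and Gabrb1 (1.27-fold). None of these was called with scaling to library size. Of 39 vesicle genes 4 (10.3%) were higher, 7 without the 2 libraries and 1 with scaling to library size, among them Syt11 (1.15-fold), Syt4 (1.31-fold) and Rims3 (1.19-fold). The calls of Gria1, Gad1, Syt11 and Rims3 were lost without the 2 libraries (adjusted p from 0.0506 for Gria1 to 0.151 for Gad1), and those of Scn2a, Gria2, Dlg3, Nlgn3, Gad2, Gabrb1 and Syt4 when 1 single library was left out. Of 68 protocadherins 6 (8.82%) were higher and 0 lower, and 6 and 0 without the 2 libraries, with Pcdh17 1.32-fold and Pcdh1 1.56-fold higher. Pcdh8 (2.73-fold) was highest in CI-994 replicate 2, with 9.13, 26.3, 7.16 and 9.22 CPM in drug libraries.

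Single clock, glucocorticoid and non-coding genes also changed. Of 19 clock genes 4 (21.1%) were higher and 3 (15.8%) lower, against 9.57% and 14.6% of all genes, and 5 and 2 without the 2 libraries. Arntl, which encodes the clock activator BMAL1, was at 61.0, 53.1, 54.3 and 44.3 CPM with vehicle and at 109.5, 72.3, 117 and 85.6 CPM with CI-994, 1.80-fold higher with no overlap (adjusted p = 0.000179). The repressor gene Cry2 was 1.53-fold higher and Nfil3 1.77-fold higher, whereas the repressor gene Ciart was at 9.01, 10.4, 8.16 and 12.8 CPM with vehicle and at 4.68, 3.85, 4.85 and 4.63 CPM with CI-994, 2.24-fold lower. Per1 (0.03 ± 0.25) and Per2 (-0.13 ± 0.17), which light, activity and glucocorticoids induce, were not called. Of 19 glucocorticoid-responsive genes 4 (21.1%) were higher and 0 lower, 4 and 1 without the 2 libraries, and 2 and 1 with scaling to library size. The receptor gene Nr3c1 was 1.34-fold higher, with 69.8 to 102 CPM in vehicle and 106 to 120.2 CPM in drug libraries, Zbtb16 1.42-fold, Tsc22d3 1.41-fold and Klf9 1.21-fold. Of 11 nuclear long non-coding RNAs 3 were higher, and 3 without the 2 libraries. Neat1, the scaffold of paraspeckles, was at 90.8, 83.2, 49.1 and 96.8 CPM with vehicle and at 144, 144, 164 and 194 CPM with CI-994, 2.02-fold higher with no overlap (adjusted p = 0.000429), and Malat1 was not called (0.17 ± 0.18). Of 22 heat shock genes 2 (9.09%, near the 9.57% of all genes) were higher, Dnajb5 (1.55-fold) and Hspb8 (1.38-fold), and 5 without the 2 libraries. Of 39 ribosomal protein genes 5 (12.8%) were called higher, at most 1.15-fold among the named ones, and 0 without the 2 libraries or with scaling to library size. None of the 12 tested genes of the mitochondrial genome was called.

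Several markers of oligodendrocyte precursors, the dividing glia from which myelinating cells arise, rose with CI-994. Of 12 tested markers 7 (58.3%) were called higher and 0 lower, against 9.57% and 14.6% of all genes (median 0.58), and 6 and 0 without the 2 libraries. Pdgfra, the growth factor receptor that defines precursors, was at 53.5, 62.3, 59.0 and 56.7 CPM with vehicle and at 85.6, 89.0, 85.2 and 83.2 CPM with CI-994, 1.48-fold higher (adjusted p = 3.38e-05). Olig2, a transcription factor of the lineage, was at 13.2, 20.5, 10.2 and 17.9 CPM with vehicle and at 25.6, 29.7, 28.6 and 29.9 CPM with CI-994, 1.84-fold higher, and Gpr17 and Neu4 were 1.60-fold and 1.57-fold higher. The drug libraries lay above the vehicle libraries in all 4 genes. These are the called members with the smallest adjusted p, so the separation follows largely from the choice. Over the list 7 of 12 markers had no overlap of the groups, against 23.6% of all genes. The summed level of the list was 426 to 575 CPM with vehicle and 665 to 725 CPM with CI-994. Of 14 markers of mature oligodendrocytes 4 were higher, and 2 without the 2 libraries. Opalin was 1.77-fold higher, but the main myelin gene Mbp (0.19 ± 0.21) was not called. Mbp was at 2766, 2800.0, 1217 and 2361 CPM in vehicle libraries, lowest in replicate 3.

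Markers of other cell types were also higher in part, and several moved with single libraries. Over all genes 9.57% were called higher. The share was 18.8% of astrocyte, 20% of microglial and 25% of endothelial and pericyte markers. It was nearer that of all genes for neocortical (14.3%) and interneuron markers (13.3%), with 2 genes in each list. Of 16 astrocyte markers 3 were higher, and 3 without the 2 libraries: Sox9, the glial transcription factor, at 14.2, 11.6, 9.86 and 8.21 CPM with vehicle and 25.4, 28.4, 22.8 and 21.1 CPM with CI-994 (2.23-fold), with Gja1 (1.25-fold) and Slc1a3 (1.19-fold). Aqp4 was not called (0.25 ± 0.10). The summed level of the astrocyte list was 6405 to 7068 CPM with vehicle and 7280.0 to 7812 CPM with CI-994 after TMM scaling. TMM factors were 1.024 to 1.051 in vehicle and 0.952 to 1.017 in CI-994 libraries, and unscaled sums were not compared. With scaling to library size 2 astrocyte markers were higher and 0 lower. Of 15 microglial markers 3 were higher, Itgam (1.26-fold), Siglech (1.22-fold) and Cx3cr1 (1.20-fold), and 2 without the 2 libraries, where Cx3cr1 was not called (adjusted p = 0.0714). With scaling to library size 1 microglial marker was higher and 1 lower. Of 16 endothelial and pericyte markers 4 were higher, and 3 without the 2 libraries or with scaling to library size. Cldn5, a tight junction gene, was at 13.6, 6.95, 6.46 and 4.31 CPM with vehicle and at 18.6, 16.7, 13.9 and 13.8 CPM with CI-994 (2.02-fold, adjusted p = 0.0621 without the 2 libraries), and Pdgfrb was 1.60-fold higher. The choroid plexus and ependymal list had 5 of 12 higher with all libraries (median 0.93) and 0 without the 2, with a summed level of 33.8 to 59.8 CPM with vehicle and 57.7 to 90.6 CPM with CI-994. Its defining gene Ttr was at 9.88, 8.89, 0.102 and 1.12 CPM with vehicle and at 1.22, 3.60, 0.82 and 0.291 CPM with CI-994. The thalamic list had 5 of 12 (median 0.52) and the pallidal and septal list 3 of 10 (median 1.05) higher, or 3 and 1 without the 2 libraries. Zic1 was called higher with all libraries (1.65 ± 0.56, adjusted p = 0.0407) and was at -0.05 without the 2 (adjusted p = 0.786). Summed levels of the thalamic list were 143 to 163 CPM with vehicle and 171 to 396 CPM with CI-994. Those of the pallidal and septal list were 75.1 to 105 CPM with vehicle and 102 to 379.5 CPM with CI-994. Of 14 neocortical markers 2 were higher, Tle4 (1.43-fold) and Fam84b (1.66-fold), and 2 without the 2 libraries, while Slc17a7 was not called (0.39 ± 1.14), and the summed level was 344 to 809 CPM with vehicle and 437 to 722 CPM with CI-994. Of 12 hippocampal markers 3 were higher (and 2 without the 2 libraries), namely Pou3f1 (1.59-fold), Prox1 (1.53-fold) and Tdo2 (2.75-fold, adjusted p = 0.185 without the 2 libraries). Prox1 was at 11.4 to 15.8 CPM with vehicle and 19.5 to 23.4 CPM with CI-994, and hippocampus libraries held 162 CPM or more. Of 15 interneuron markers 2 were higher and 0 lower, and 1 and 1 without the 2 libraries. Lhx6, a factor of the interneuron lineage, was 1.37-fold higher and Calb2, also a thalamic marker, was at 3.20, 32.9, 2.46 and 6.73 CPM with CI-994 and was not called without the 2 libraries (adjusted p = 0.185). Chat of cholinergic neurons was not called (-0.09 ± 0.16). None of the 5 blood markers was called. Whether tissue outside the striatum or changes within cells set these values was not tested.

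**Figure D4:**
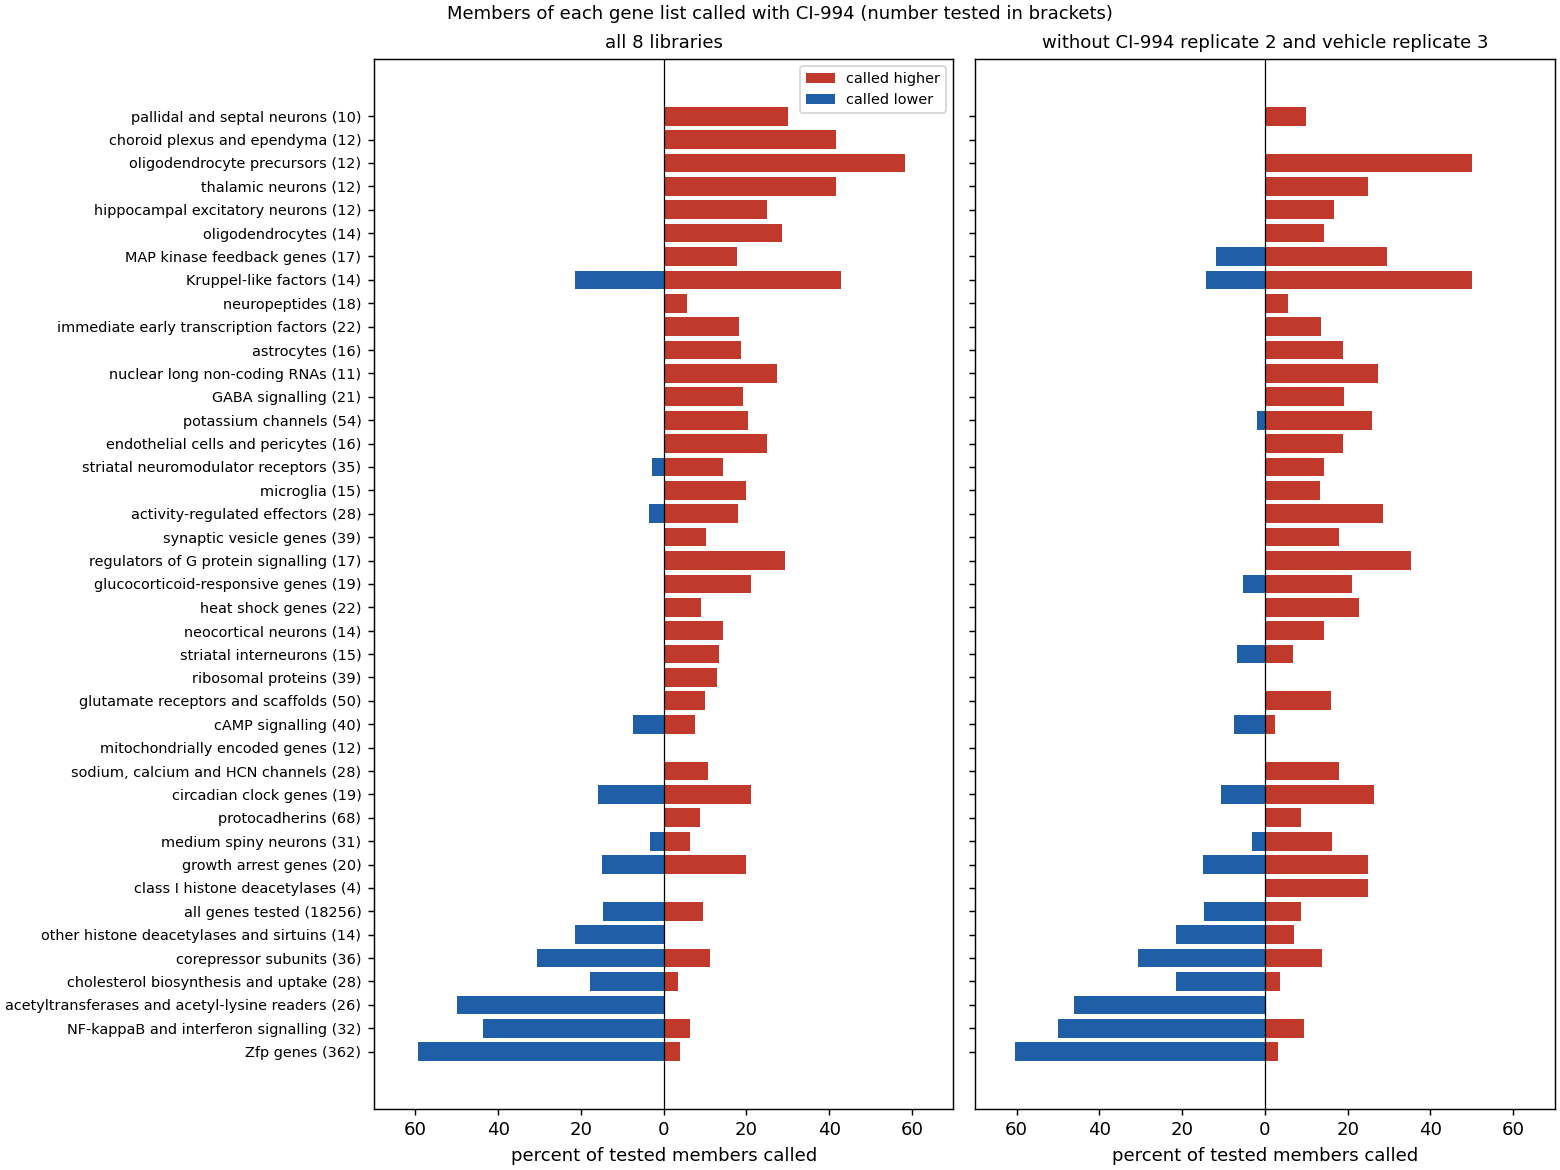
Percent of the tested members of each list called higher (right) or lower (left) with CI-994, with the number tested in brackets and lists ordered by their median log2 fold change, for all 8 libraries and for 6 libraries. Zfp genes (215 of 362 lower), NF-kappaB and interferon genes and acetyltransferases reach furthest to the left in both panels, and precursor markers (7 of 12 higher) and Kruppel-like factors (6 of 14) stay to the right.

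The drug effect after conditioning had the direction of the effect in context mice, which are other animals with their own vehicle group, for nearly every called gene. In context mice 4524 genes (24.8%) were called, 1878 (10.3%) higher and 2646 (14.5%) lower. Of the 1748 genes called higher after conditioning 1092 were also called higher in context mice and 0 were called lower there, and of the 2668 called lower 2190 were also lower and 0 higher. The log2 fold change had the same sign in 99.1% of the first set, in 99.7% of the second and in 81.6% of all genes. Sin3a was -0.97 after conditioning and -1.13 in context mice, Themis2 2.33 and 2.21, and Rgs4 0.94 and 1.02, as log2 fold changes. Ing5 was -1.99 and -1.97, Zfp111 -1.38 and -1.48 and Pdgfra 0.57 and 0.59. Zic1 had 1.65 after conditioning and 0.25 in context mice, a difference of 1.41 ± 0.78 (adjusted p = 1). The direct test of the difference between the effects called 0 genes by edgeR's quasi-likelihood test, with 380 genes at unadjusted p under 0.05, and 0 by DESeq2. The median standard error of a difference was 0.195 log2, against 0.138 for the effect after conditioning. Cage and behaviour cannot be told apart here.

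**Figure D5:**
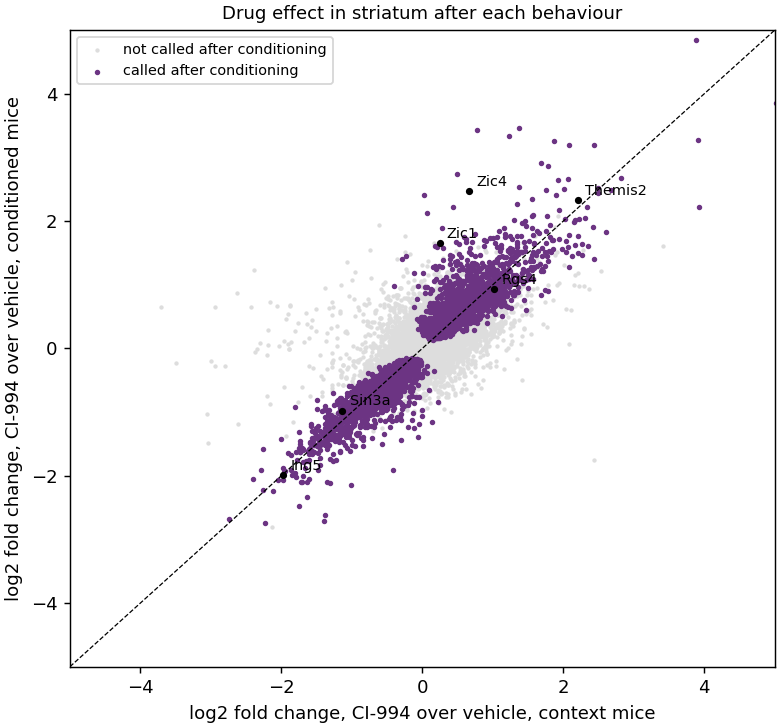
Log2 fold change of CI-994 over vehicle in conditioned mice (vertical) against that in context mice (horizontal) for 18256 genes, with genes called after conditioning in purple and the diagonal dashed. Nearly all called genes lie in the 2 quadrants of equal sign, with Themis2 (2.33 and 2.21) and Ing5 (-1.99 and -1.97) near the diagonal and Zic1 and Zic4 above it.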

How the data were processed

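RNA of 16 striatum libraries (4 groups of 4 mice) was used, of 32 libraries in the series. The deposited values are raw counts of reads on each gene. Per the labels' protocols the authors prepared TruSeq Stranded mRNA libraries and sequenced paired ends. Tools in the submitters' processing notes are STAR 2.6, bcl2fastq 2.20.0 and DESeq2, with mm10 as the build. Which tool counted reads, and with what strand rule, is not given in the sources used here. Of 54146 gene identifiers 54079 matched a GENCODE M21 symbol, and the other 67 held at most 0.0264% of a library. Totals of the 8 conditioning libraries ran from 27418127 to 31208658 counts. Replicates differed beyond sampling noise (chi-square per degree of freedom 11.1 to 64.5), so none was a copy. Counts were fitted over the 16 libraries in R 4.3.3 with edgeR 4.0.16 (TMM, filterByExpr, quasi-likelihood F test, two-sided, Benjamini-Hochberg over 18256 genes). The fit was tested on simulated data.

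Groups were taken from the labels. The genes and lists were chosen with earlier results of these data known. Named were the 12 genes that rose and the 12 that fell most among called genes with a mean of 1 log2 CPM or more, no overlap of the 8 libraries and the same call without CI-994 replicate 2 and vehicle replicate 3, chosen list members, and the 4 called members of each list with the smallest adjusted p. Some genes that this rule names are not reported here. Genes of the 39 lists and 2 symbol families were matched by symbol. Alternatives were another scaling, tool, filter, design or set of libraries.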

Additional observations from a re-analysis of the deposited data

Results flagged for a closer look

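In 37 of 500 groups of 4 libraries (2 groups for each of 209 genes and 41 lists) the highest or lowest library stood apart from the other three by more than Dixon's 95% critical share of the group's range, and chance alone gives about 1 in 20 such groups. CI-994 replicate 2 held 14 of the 37 and vehicle replicate 3 held 8.

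In CI-994 replicate 2 the isolated levels were Zic1 116 CPM, Zic4 23.6, Prkcd 74.3, Calb2 32.9, Trpc4 38.5, Pnoc 8.94, Pcdh8 26.3, Foxj1 15.1, Gabrb1 218, Rgs3 32.3, Ly6c1 32.2 and Plk2 355 CPM, with Ly6c1 and Plk2 below the other drug libraries and the rest above them. The mean of the thalamic list was 3.97 log2 CPM there (2.54 to 2.75 in the other drug libraries) and that of the pallidal and septal list 4.21 log2 CPM (2.53 to 2.81).

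In vehicle replicate 3 the isolated levels were Slc17a7 339, Bdnf 17.0, Ptgs2 12.0, Creb1 72.3, Mapkapk3 2.45 and Fam167a 2.92 CPM, above the other vehicle libraries, and Chat 16.1 and Zic1 8.97 CPM, below them.

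Single isolated levels elsewhere were as follows. In vehicle replicate 1 they were Ep300 88.4, Fam84b 28.2, Insig1 37.3 and Rpl15 117 CPM and a corepressor list mean of 5.40 log2 CPM. In vehicle replicate 2 they were Pvalb 24.0 and Kcnj10 207 CPM, a channel list mean of 6.81 log2 CPM for sodium, calcium and HCN channels and a mitochondrial mean of 8.68 log2 CPM. In vehicle replicate 4 it was Rcor3 at 19.1 CPM. In CI-994 replicate 1 they were Dlg4 at 890.0 CPM and the same channel list at 6.96 log2 CPM, in CI-994 replicate 3 Pvalb 15.5 and Sirt7 15.3 CPM, and in CI-994 replicate 4 Gad1 at 647 CPM. None of these libraries was left out for these values alone.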

How the results depend on the processing

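The number of called genes depended on libraries and scaling. In each of the 21 alternative fits 0 genes were called in the direction opposite to the 4416 reported. These fits reuse libraries of the main fit, and a change of sign without a call, as in Zic1 below, is not counted. Leaving out 1 library gave 3646 to 4707 calls (1247 to 2025 higher, 2299 to 2682 lower). The set of replicates 1 and 2 alone gave 1401 (295 higher, 1106 lower) and that of replicates 3 and 4 alone 2329 (702 and 1627), with fewer samples in each. Genes called higher numbered 1111 with scaling to library size, 2720 with offsets for GC content and length, and 1134 with only the 8 conditioning libraries. Without the 3 libraries highest in Slc17a7, an alternative chosen after the data were seen, 3715 genes were called (1224 higher, 2491 lower). Same-numbered vehicle and CI-994 libraries deviated together in replicate 1 (correlation 0.59) and little or not in replicates 2, 3 and 4 (0.03, -0.17 and 0.14). Between vehicle and CI-994 libraries of different numbers the correlation ran from -0.60 (vehicle replicate 3 and CI-994 replicate 1) to 0.44 (vehicle replicate 3 and CI-994 replicate 4). The replicate numbers were not used as pairs in the main fit. With a replicate block 5367 genes were called (2165 higher, 3202 lower), and with the replicate block and GC and length offsets 2681 were higher. A term for replicates 1 and 2 against 3 and 4 gave 5580 calls (2319 higher, 3261 lower). The drug by behaviour test called 0 genes in each fit that could give it.

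Zic1 reversed to -0.055 (log2) without CI-994 replicate 2 and vehicle replicate 3, and to -0.058 without the 3 libraries, and ran from 0.073 (without CI-994 replicate 2) to 1.94 when 1 library was left out. Of 153 named genes called, 108 kept the call when any 1 library was left out and 54 in every alternative run. The 45 lost in at least 1 such fit were mostly those with folds under 1.5. Beside genes already given they include Adora1, Avil, Dnajb5, Hdac10, Hspb8, Klf12, Klf9, Npy1r, Slc1a3, Siglech, Strip2 and Tsc22d3. Tdo2, at 0.07 to 0.56 CPM in the 8 libraries without TMM scaling, lost its call in 7 of 8 fits that left out 1 library. Themis2, also low in vehicle libraries, lost its call in 0 of them. The part of depth was not tested. Positions, strand and near-identical relatives of genes were not tested.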
